A study of Mus musculus with 6 samples.

Results

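Transcripts of the insulin-like growth factor (IGF) system were followed in primary mouse cardiac fibroblasts, the matrix-forming connective tissue cells of the heart. The 10 genes described are the ligands Igf1 and Igf2, the receptors Igf1r and Igf2r, and the binding proteins Igfbp2, Igfbp3, Igfbp4, Igfbp5, Igfbp6 and Igfbp7. They were chosen by gene symbol (Entrez IDs 16000, 16002, 16001, 16004, 16008, 16009, 16010, 16011, 16012 and 29817, in that order), and all 10 were found among the 18059 genes of the deposited tables. The treated group holds 3 libraries of cells given PDGF-DD for 12 hours, and the control group 3 libraries of cells given saline for the same time. PDGF-DD is platelet-derived growth factor D in its processed, dimeric form, a mitogen that acts mainly through the receptor PDGFRβ. The labels give its dose as 20 µM, which is very high for a growth factor, so that the unit is doubtful. According to the growth protocol, all cells came from C57BL/6 mice aged 1 to 2 weeks that lack PDGF-D in every tissue, and they were kept in DMEM with 15% fetal bovine serum. The genotype field instead reads PDGF-D -/- for the PDGF-DD samples and control for the control samples. If that field is right, genotype and treatment cannot be told apart. The labels do not tell whether replicates are separate cultures or mice, so the p-values reflect only how far these libraries scatter, possibly for technical reasons.

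IGF1 and IGF2 are small secreted hormones related to insulin. Both activate the IGF1 receptor, a tyrosine kinase that signals through the insulin receptor substrates to the PI3K and AKT kinases and promotes growth and survival of cells. The IGF2 receptor, which is also the cation-independent mannose 6-phosphate receptor, takes IGF2 up for breakdown in lysosomes. The IGF-binding proteins hold IGFs in the extracellular space with high affinity, and can lower or prolong their action, until proteases cut them. IGFBP7 binds IGFs only weakly and is deposited in matrix. In the heart, fibroblasts are known as a source of IGF1.

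With PDGF-DD, the mixture of binding protein transcripts changed while the ligand transcripts did not pass the test. Igfbp3 was 1.61-fold higher with PDGF-DD than in control, whereas Igfbp5 was 2.36-fold, Igfbp4 1.44-fold and Igfbp2 1.22-fold lower (3 libraries per group). Both receptor genes were slightly lower. So was Igfbp7, the most abundant of the 10, but its groups overlapped and its call was lost without some single libraries. All 10 genes passed the filter on low counts. Of them 1 rose and 6 fell (quasi-likelihood test of edgeR with an adjusted p under 0.05 after Benjamini and Hochberg), where 19.1% of all 13270 tested genes rose and 17.4% fell, 36.5% in either direction. Their median log2 fold change was -0.19, beside -0.01 for all tested genes. The 10 genes were chosen with earlier results of these data known, so the comparison with all tested genes is a description.

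The stretches of DNA just before the start sites of the 4 binding protein genes with the largest changes are shown, since their transcripts moved in opposite directions. They are RefSeq sequences of build GRCm38.p6, whereas the deposited values were made on mm9, and each runs 5′ to 3′ on the strand of its gene up to the annotated start site. That of Igfbp5 ends 19 bases before the RefSeq start, where an exon of the GENCODE annotation begins. Capitals mark matches to short motifs that were searched on both strands.
Igfbp3 promoter, chr11:7213924-7214173, minus strand: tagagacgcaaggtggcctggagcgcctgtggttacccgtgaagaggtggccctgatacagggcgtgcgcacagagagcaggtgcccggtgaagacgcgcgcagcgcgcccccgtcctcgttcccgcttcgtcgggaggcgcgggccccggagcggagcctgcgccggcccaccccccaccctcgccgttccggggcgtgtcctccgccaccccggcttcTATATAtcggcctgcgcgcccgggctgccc
Igfbp5 promoter, chr1:72874885-72875115, minus strand: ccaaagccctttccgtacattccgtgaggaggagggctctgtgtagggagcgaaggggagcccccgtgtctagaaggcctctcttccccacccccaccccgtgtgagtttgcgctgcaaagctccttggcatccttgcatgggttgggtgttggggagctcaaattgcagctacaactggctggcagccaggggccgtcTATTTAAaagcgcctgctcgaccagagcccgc
Igfbp4 promoter, chr11:99040994-99041243, plus strand: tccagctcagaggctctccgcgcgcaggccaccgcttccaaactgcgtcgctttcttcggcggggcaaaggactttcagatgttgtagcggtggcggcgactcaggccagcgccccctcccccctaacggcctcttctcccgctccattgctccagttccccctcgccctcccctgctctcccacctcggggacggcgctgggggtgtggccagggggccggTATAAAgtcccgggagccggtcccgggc
Igfbp2 promoter, chr1:72824230-72824479, plus strand: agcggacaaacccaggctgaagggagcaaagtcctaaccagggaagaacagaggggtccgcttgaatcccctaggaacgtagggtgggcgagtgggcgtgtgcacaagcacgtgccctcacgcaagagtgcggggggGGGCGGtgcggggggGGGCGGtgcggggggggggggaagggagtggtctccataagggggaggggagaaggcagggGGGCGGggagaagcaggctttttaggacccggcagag
The capitals in Igfbp4 are the TATA box letters TATAAA, 28 to 23 bases before the start site, which 12.4% of 32817 windows of 250 bases before mouse RefSeq start sites also hold. In Igfbp3 they are TATATA, 30 to 25 bases before the start (5.25% of windows), and in Igfbp5 TATTTAA, 51 to 45 bases before the start (4.18%). These 2 variants were added to the search after the sequences had been read. Igfbp2 held none of the 3 TATA forms and 3 copies of the GC box GGGCGG. The share of windows with any GC box, whatever the number of copies, was 32.7%. All shares of windows given here count a match anywhere in the 250 bases, on either strand. The AP-1 letters TGANTCA (6.75% of windows), the FoxO letters GTAAACA (3.16%) and the CArG box (1.47%) were in none of the 4 windows. No motif was held by all 4 windows, and a match is a description of letters and not of binding.

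Igfbp3 encodes the main carrier of IGFs in blood, which also acts locally. Values here are counts scaled to library size with TMM factors (CPM) unless another unit is named. Igfbp3 stood at 324, 306 and 303 CPM in the PDGF-DD libraries, against 183, 195 and 199.7 CPM in the control libraries. The lowest PDGF-DD library lay well above the highest control library. The means were 311 ± 11.4 CPM with PDGF-DD and 193 ± 8.82 CPM in control (SD, n = 3 each). The log2 fold change was 0.69 (SE 0.04, 95% interval 0.61 to 0.78, edgeR adjusted p = 1.52e-12). Of the 10 genes Igfbp3 had the smallest p. It was the only member that rose.

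Igfbp5, a binding protein that attaches to extracellular matrix, had the largest change of the 10. Its values were 24.5, 21.3 and 21.4 CPM with PDGF-DD, against 54.3, 45.2 and 59.2 CPM in control. Every PDGF-DD library was below every control library, and the control libraries were spread more widely than the treated ones. Means of 22.4 ± 1.86 CPM with PDGF-DD and 52.9 ± 7.10 CPM in control gave a log2 fold change of -1.24 (SE 0.11, 95% interval -1.49 to -0.99, edgeR adjusted p = 3.2e-05).

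Igfbp4, which mostly blocks IGF action until the protease PAPP-A cleaves it, stood at 73.8, 73.4 and 69.2 CPM with PDGF-DD, against 101, 105 and 105 CPM in control. The groups were far apart relative to the spread within each. The log2 fold change was -0.53 (SE 0.04, edgeR adjusted p = 5.5e-10). Igfbp2, a binding protein abundant in fetal tissues, stood at 46.0, 49.2 and 50.2 CPM with PDGF-DD, against 63.8, 57.7 and 56.5 CPM in control. The groups did not overlap, although the gap between them was smaller than for Igfbp4 (log2 fold change -0.29, SE 0.05, edgeR adjusted p = 9.31e-05). Igfbp2 and Igfbp5 are neighbours on chromosome 1 and lie on opposite strands, with no other protein-coding gene between them in RefSeq.

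Igfbp6, which prefers IGF2 over IGF1, was the least abundant binding protein gene by count. Its values were 7.41, 7.66 and 7.46 CPM with PDGF-DD, against 10.1, 7.98 and 8.46 CPM in control. The PDGF-DD libraries were all lower, but the control libraries were uneven and the test was not passed (log2 fold change -0.24, SE 0.10, 95% interval -0.44 to -0.03, edgeR adjusted p = 0.0731). With 158 to 214 counts per library, counting error alone would give an SE of 0.09, so depth limits the precision for Igfbp6. Without control replicate 2 it was passed (edgeR adjusted p = 0.0386), and over all alternatives the adjusted p ranged from 0.0357 to 0.366.

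Igfbp7 stood at 1606, 1711 and 1580.0 CPM with PDGF-DD, against 1786, 1706 and 1816 CPM in control. PDGF-DD replicate 2 lay above control replicate 2, so the groups overlapped. The log2 fold change was -0.12 (SE 0.04, edgeR adjusted p = 0.0182). The call was lost without PDGF-DD replicate 1 (edgeR adjusted p = 0.124), without PDGF-DD replicate 3 (0.164) or without control replicate 3 (0.0974), and the adjusted p ranged from 0.00635 to 0.164 over all alternatives. Exons of Igfbp7 overlap those of Polr2b on the other strand in the GENCODE annotation. Whether the authors' counting used strand is not known here, and reads of the 2 genes may be shared.

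**Figure D1:**
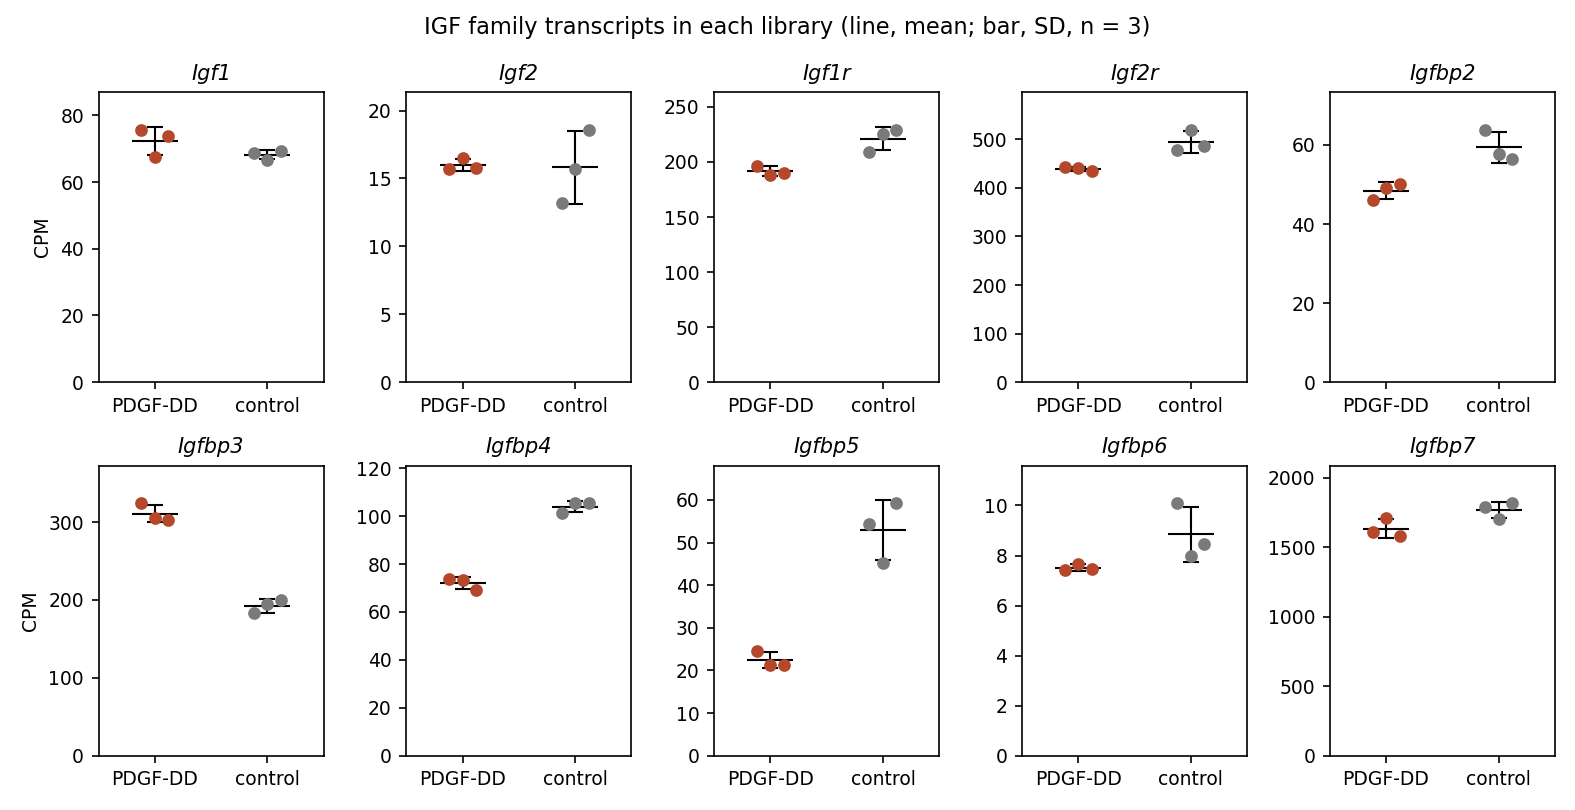
Level of each IGF family gene (y axis, CPM from 0, a separate scale for each gene) in the PDGF-DD libraries (left, red points) and the control libraries (right, grey points), with the mean as a line and the SD as a bar (n = 3 each). Igfbp3 is higher and Igfbp4 and Igfbp5 lower in every PDGF-DD library, while the groups overlap for Igf1, Igf2 and Igfbp7.

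The ligand genes did not pass. Igf1 stood at 75.7, 67.6 and 73.9 CPM with PDGF-DD, against 68.8, 66.6 and 69.4 CPM in control. The groups overlapped through PDGF-DD replicate 2, and the log2 fold change was 0.08 (95% interval -0.02 to 0.18, edgeR adjusted p = 0.183). Without PDGF-DD replicate 2, Igf1 was called higher, by 0.14 on the log2 scale (edgeR adjusted p = 0.0298), and the adjusted p ranged from 0.0298 to 0.459 over all alternatives. Igf2, an imprinted fetal growth factor, stood at 15.7, 16.5 and 15.8 CPM with PDGF-DD, against 13.2, 15.7 and 18.6 CPM in control. The PDGF-DD values lay within the wider spread of the control values. The log2 fold change was 0.02 (95% interval -0.19 to 0.22, edgeR adjusted p = 0.909), and without control replicate 1 its sign turned, to -0.10 (edgeR adjusted p = 0.382). These intervals leave room for a rise or fall of Igf2 of modest size. Exons of Igf2 overlap the antisense RNA gene Igf2os on the other strand and Gm49394 on the same strand. The values of Igf2 are therefore uncertain, and for Gm49394 counting by strand would not separate the reads. Neither Igf2os nor Gm49394 is listed among the deposited genes, whereas Polr2b, which overlaps Igfbp7, is.

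The receptor genes fell slightly. Igf1r stood at 197, 188 and 189.8 CPM with PDGF-DD, against 209, 225 and 229 CPM in control. The groups did not overlap, and the log2 fold change was -0.21 (SE 0.04, edgeR adjusted p = 0.000248). Igf2r stood at 444, 440.0 and 435 CPM with PDGF-DD, against 478, 519 and 486 CPM in control. The groups again did not overlap, and the log2 fold change was -0.17 (SE 0.04, edgeR adjusted p = 0.00108). Transcripts of Igf2r were 3.05 ± 0.0443 times those of Igf1r per length with PDGF-DD and 3.00 ± 0.138 times in control (ratio of TPM, SD, n = 3 each).

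By CPM, 1 of the 10 genes was higher in every PDGF-DD library than in any control library and 6 were lower in every one, among them Igfbp6, which was not called. Of all tested genes 23.6% were higher and 23.5% lower in this way, 47.1% in either direction. For each of these 7 genes the exact two-sided permutation test over the libraries gave p = 0.1, the smallest value that 3 libraries against 3 allow.

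**Figure D2:**
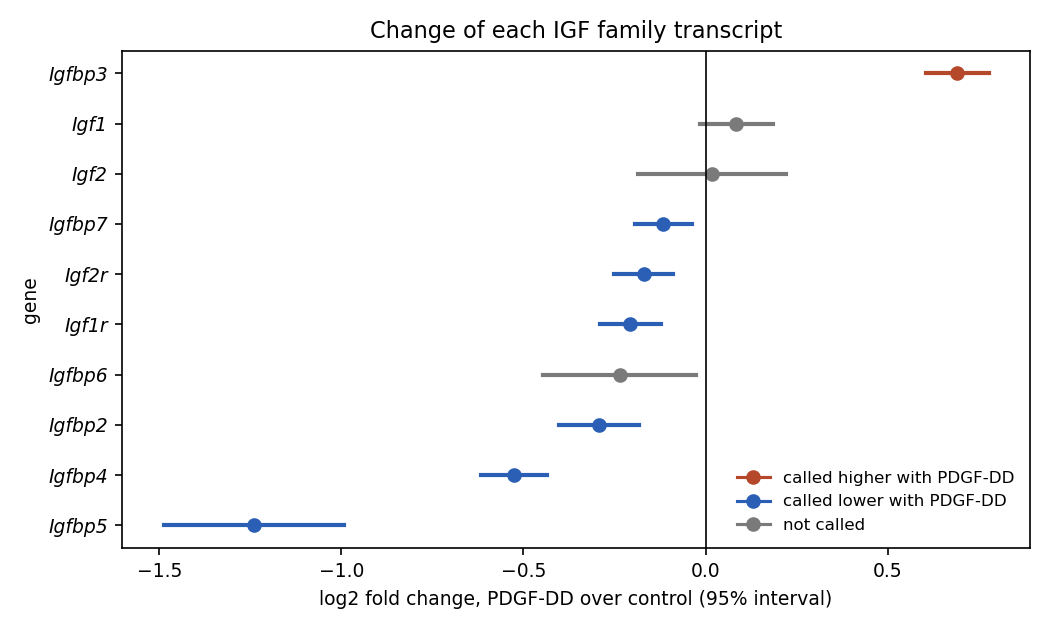
Log2 fold change of each IGF family gene (x axis, PDGF-DD over control, 0 means no difference; y axis, genes in order of change) with its 95% interval from edgeR (n = 3 libraries each). Red marks the gene called higher, Igfbp3, blue the 6 called lower, with Igfbp5 at -1.24, and grey the 3 that were not called.

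To compare levels between genes, the deposited TPM values, which are scaled by transcript length, were used. With PDGF-DD the order was Igfbp7 (3454 ± 107 TPM), Igfbp3 (294 ± 13.0), Igf2r (112 ± 1.81), Igfbp2 (87.4 ± 2.64), Igfbp4 (79.8 ± 2.68), Igf1r (36.8 ± 1.13), Igf1 (23.3 ± 1.65), Igfbp6 (13.7 ± 0.0764), Igf2 (11.0 ± 0.592) and Igfbp5 (8.75 ± 0.803; SD, n = 3 each). No neighbours in that order overlapped between libraries. In control the order was Igfbp7 (3769 ± 140.1 TPM), Igfbp3 (183 ± 13.4), Igf2r (127 ± 8.50), Igfbp4 (116 ± 5.87), Igfbp2 (109 ± 3.40), Igf1r (42.4 ± 3.18), Igf1 (22.1 ± 0.649), Igfbp5 (20.8 ± 2.79), Igfbp6 (16.3 ± 1.55) and Igf2 (10.9 ± 2.62). Neighbours whose ranges over the control libraries overlapped were Igf2r and Igfbp4, Igfbp4 and Igfbp2, and Igf1 and Igfbp5. Within each control library, however, Igf2r lay above Igfbp4 (119 against 109, 136 against 119 and 127 against 119 TPM). The order of the other overlapping neighbours changed between control libraries. Igfbp5 was thus last of the 10 with PDGF-DD and level with Igf1 in control. Averaged over the 6 libraries, Igfbp7 ranked 24 and Igfbp3 667 among the 18059 genes.

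Among the transcripts of the binding proteins Igfbp2 to Igfbp6, Igfbp3 made up 61.9%, 59.9% and 60.5% with PDGF-DD, against 39.4%, 41.8% and 42.3% in control. The share of Igfbp4 was 16.5%, 16.9% and 16.2% with PDGF-DD and 25.5%, 26.4% and 26.1% in control, and that of Igfbp2 18.1 ± 1.02% with PDGF-DD and 24.5 ± 1.52% in control (SD, n = 3 each). Igfbp5 held 1.81 ± 0.115% with PDGF-DD and 4.67 ± 0.609% in control. The sum over these 5 genes was 499, 476 and 477 TPM with PDGF-DD and 427, 452 and 457 TPM in control, so the groups did not overlap. The sum was 20.3, 22.2 and 19.9 times the Igf1 level with PDGF-DD, and 19.8, 20.6 and 20.0 times in control, with overlap. Per length, Igfbp3 transcripts were 33.7 ± 1.53 times those of Igfbp5 with PDGF-DD and 8.92 ± 1.34 times in control. Igfbp7 transcripts were 7.14 ± 0.327 times the sum of the other 5 with PDGF-DD and 8.46 ± 0.254 times in control. These shares and ratios follow from the changes of the single genes and were not tested.

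**Figure D3:**
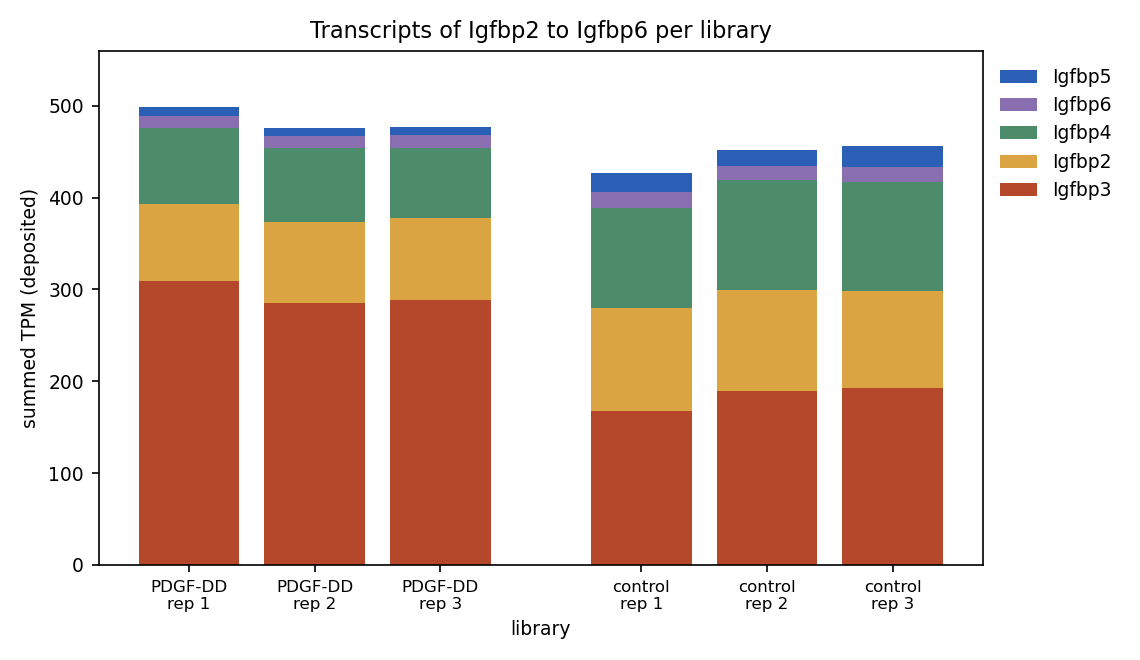
Deposited TPM of Igfbp2 to Igfbp6 stacked for each library (y axis, summed TPM from 0; x axis, PDGF-DD libraries left, control libraries right). Igfbp3, at the bottom, takes 59.9% to 61.9% of each PDGF-DD bar and 39.4% to 42.3% of each control bar, and the Igfbp5 layer on top is thinner with PDGF-DD.

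Other members of the binding protein family were barely present. Igfbp1, the neighbour of Igfbp3 on chromosome 11, had no count in any library, which allows up to 0.142 CPM (3 counts in a library, counting error only). Igfals, which encodes the acid-labile subunit of the large IGF complex of blood, had no count in the PDGF-DD libraries and 1, 2 and 0 counts in the control libraries. Igfbpl1 had between 3 and 7 counts with PDGF-DD and between 0 and 6 in control.

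Proteases and partners of the binding proteins were read from a list of 25 genes, of which 14 could be tested. Of these 2 rose (14.3%) and 3 fell (21.4%), beside 19.1% and 17.4% of all tested genes. The median log2 fold change of the list was -0.02. Pappa, the gene of PAPP-A, the protease that frees IGF from IGFBP4, fell to 59.9 ± 0.493 CPM with PDGF-DD, against 103 ± 6.35 CPM in control (log2 fold change -0.77, SE 0.05, edgeR adjusted p = 2.21e-12). Mmp14, a membrane-bound matrix metalloproteinase, fell to 951 ± 11.2 CPM with PDGF-DD, against 1172 ± 51.3 CPM in control (log2 fold change -0.30, edgeR adjusted p = 4.6e-07). The serine protease gene Htra3 fell to 21.7 ± 0.821 CPM with PDGF-DD, against 25.1 ± 2.86 CPM in control (edgeR adjusted p = 0.028), which was lost without PDGF-DD replicate 1 (0.0713), PDGF-DD replicate 3 (0.146) or control replicate 3 (0.248). Adam12, a protease known to cut IGFBP3 and IGFBP5, rose to 351 ± 15.8 CPM with PDGF-DD, against 259 ± 11.3 CPM in control (log2 fold change 0.44, edgeR adjusted p = 5.93e-09), and the plasminogen activator gene Plat rose by 0.14 on the log2 scale (edgeR adjusted p = 0.0104). The stanniocalcin gene Stc2, which encodes an inhibitor of PAPP-A and was named after its value was seen, stood at 27.1 ± 1.38 CPM with PDGF-DD and 27.2 ± 1.58 CPM in control (edgeR adjusted p = 0.961). Its relative Stc1, also named after its value was seen, had the highest log2 fold change of the list, 0.46, but did not pass (edgeR adjusted p = 0.0673). The lysosomal protease gene Ctsd was the most abundant tested gene of the list, with 1282 ± 31.8 CPM in PDGF-DD libraries and 1355 ± 10.7 CPM in control libraries, and did not pass (edgeR adjusted p = 0.0819).

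Of 9 secreted proteins that share the IGFBP domain or have been grouped with the binding proteins, 3 rose and 4 fell (median log2 fold change -0.13). These were 33.3% and 44.4% of the list, where 19.1% of all tested genes rose and 17.4% fell. The matricellular protein gene Ccn5 fell to 350.4 ± 20.5 CPM with PDGF-DD, against 770.0 ± 12.6 CPM in control (log2 fold change -1.14, edgeR adjusted p = 7.3e-17), and its relative Ccn3 had a change of -0.52 (1.69e-07). Crim1 also fell and Ccn1 rose. Ccn4 was called lower (log2 fold change -0.13, edgeR adjusted p = 0.0119), but not without PDGF-DD replicate 1 (0.0521), 2 (0.0612) or 3 (0.0598) or control replicate 2 (0.123, at -0.087). Esm1, which encodes the proteoglycan endocan, rose by 1.28 on the log2 scale (edgeR adjusted p = 1.05e-09), and Ccn2, the most abundant of the 9, rose to 3046 ± 70.6 CPM with PDGF-DD, against 2608 ± 68.1 CPM in control.

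The route from the IGF1 and insulin receptors into the cell was read from 42 tested genes of IGF and insulin receptor signalling. Beside 19.1% of all tested genes that rose and 17.4% that fell, 5 of these rose and 12 fell (median log2 fold change -0.06). Without PDGF-DD replicate 3 these numbers were 3 and 7, without control replicate 2 7 fell, without control replicate 1 3 rose, and DESeq2 called 3 higher and 7 lower. Insr, the insulin receptor gene, fell to 29.4 ± 1.22 CPM with PDGF-DD, against 38.9 ± 1.07 CPM in control (log2 fold change -0.40, edgeR adjusted p = 2.69e-06). The docking protein genes moved in different directions. Irs1 encodes a protein that passes the signal of the IGF1 and insulin receptors to PI3K. Irs1 rose to 49.2 ± 0.508 CPM with PDGF-DD, against 38.1 ± 1.95 CPM in control (log2 fold change 0.37, edgeR adjusted p = 2.58e-06). Irs2, named after its value was seen, rose by 0.23 on the log2 scale (edgeR adjusted p = 0.00104). Gab1, a docking protein used by several growth factor receptors, fell to 34.2 ± 0.995 CPM with PDGF-DD, against 48.1 ± 1.60 CPM in control (log2 fold change -0.49, edgeR adjusted p = 3.55e-08). The transcription factor gene Foxo1, which AKT restrains and which was named after its value was seen, fell to 21.8 ± 0.171 CPM with PDGF-DD, against 27.5 ± 0.192 CPM in control (log2 fold change -0.34, edgeR adjusted p = 9.14e-05). Eif4ebp1, a repressor of translation that mTOR inhibits and the most abundant tested gene of the list, had 281 ± 9.89 CPM with PDGF-DD and 287 ± 16.1 CPM in control and did not pass (edgeR adjusted p = 0.596).

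Igf2 belongs to a set of imprinted genes, and its messenger RNA is bound by the IGF2BP proteins. In a list of 13 tested genes on these themes 5 rose and 4 fell (median log2 fold change -0.05). That is 38.5% and 30.8%, beside 19.1% and 17.4% of all tested genes. Leaving out a library gave 2 that rose without control replicate 1, and 3 without PDGF-DD replicate 1, PDGF-DD replicate 3 or control replicate 2; DESeq2 called 1 higher. The chromatin protein gene Hmga2, which promotes Igf2bp2 expression in other cells, rose to 114 ± 13.6 CPM with PDGF-DD, against 33.9 ± 1.82 CPM in control (log2 fold change 1.75, edgeR adjusted p = 1.5e-06). The imprinted regulator genes Plagl1 and Peg3 fell, with log2 fold changes of -0.49 (edgeR adjusted p = 2.28e-06) and -0.33 (3.65e-05), and Gnas, the most abundant tested gene of the list, did not pass at -0.06. The Igf2bp genes, named after their values were seen, were near the threshold. Igf2bp1, Igf2bp2 and Igf2bp3 had log2 fold changes of 0.24, 0.13 and 0.15 (edgeR adjusted p = 0.0135, 0.0476 and 0.0297). All these calls were lost without control replicate 1 (edgeR adjusted p = 0.0704, 0.219 and 0.0614). That of Igf2bp1 was also lost without PDGF-DD replicate 3 (0.0596), that of Igf2bp2 without PDGF-DD replicate 1 (0.183) or 2 (0.0562), and that of Igf2bp3 without PDGF-DD replicate 1 (0.0874) or control replicate 2 (0.0658). In the mannose 6-phosphate receptor route, which Igf2r shares with M6pr, the receptor gene M6pr did not pass (log2 fold change -0.07, edgeR adjusted p = 0.191). Of 9 genes of that route none rose and 1 fell (11.1%), beside 19.1% and 17.4% of all tested genes. The gene that fell was the sorting adaptor gene Gga2 (-0.13, edgeR adjusted p = 0.0229). Its call was lost without PDGF-DD replicate 1 (0.109), PDGF-DD replicate 3 (0.145) or control replicate 2 (0.0562).

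**Figure D4:**
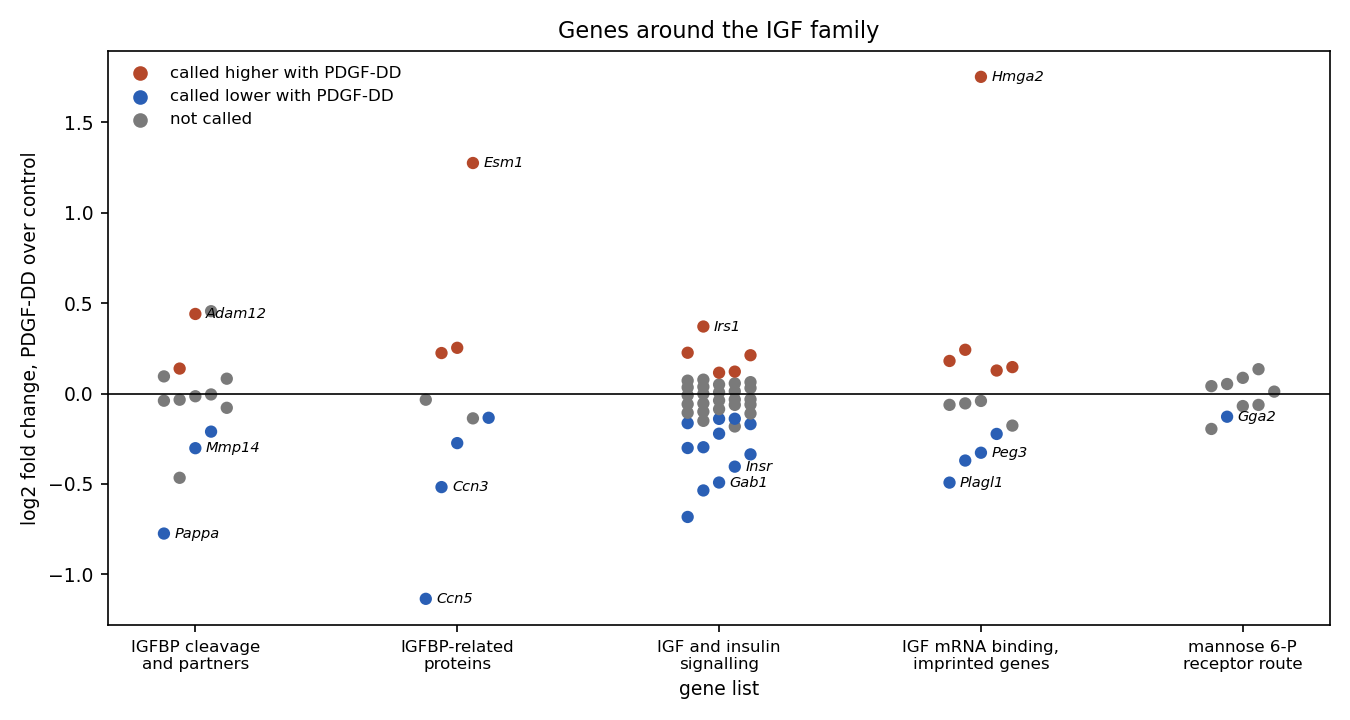
Log2 fold change (y axis, PDGF-DD over control) of every tested gene of the 5 lists around the IGF family (x axis), red where called higher, blue where called lower and grey where not called. The named genes with the smallest p in each list are labelled, such as Pappa at -0.77, Ccn5 at -1.14 and Hmga2 at 1.75.

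Among 10458 genes that averaged 5 CPM or more, those whose log2 CPM across the 6 libraries was most like Igfbp3 included Polr1b, a subunit of RNA polymerase I, and Extl2 (Pearson r = 0.998 for each). Most like Igfbp4 were Oplah, Parm1 and Ap5z1 (r = 0.999, 0.999 and 0.999). All share the same 6 libraries and the same difference between groups, so these values are a description.

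The depth was nearly equal, between 21221114 and 21371829 estimated counts per library, and the members held between 58892 and 64477 of them. Reads were assigned to Pdgfd in all 6 libraries, 69, 72 and 82 counts with PDGF-DD and 118, 114 and 91 in control. Pdgfd was called lower with PDGF-DD (log2 fold change -0.55, SE 0.14, edgeR adjusted p = 0.00245). Such counts cannot tell whether reads of the deleted stretch were among them, and the genotype was not tested. Control replicate 1 differed more from the other control libraries (chi-square per degree of freedom 5.11 and 5.70) than these did from each other (2.48), and the values without it are given where they change a call. The fibroblast markers Col1a1, Col1a2, Pdgfra, Dcn, Thy1 and Tcf21 were all present, at a summed level of 12533 to 12830 TPM with PDGF-DD and 13616 to 14884 TPM in control. Most of that sum was Col1a1 (mean 6896 TPM with PDGF-DD, 8071 TPM in control) and Col1a2 (4623 and 5090 TPM). Of these 6 markers 4 fell (Col1a1, Col1a2, Dcn and Tcf21, the last with a log2 fold change of -0.60) and 1 rose (Pdgfra, 0.40).

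Beside the fall of Igfbp5, Igfbp4 and Igfbp2, markers of several cell types were called lower more often than the 17.4% of all tested genes. They were those of fibroblasts (66.7%, named above), of smooth muscle cells and pericytes and of cardiomyocytes. Of 6 smooth muscle and pericyte markers, 4 of the 5 tested fell (Myh11, Acta2, Rgs5 and Notch3), 1 rose (Cspg4) and Kcnj8 was too low to test. Their summed level was 4774 to 5037 TPM with PDGF-DD and 6288 to 6397 TPM in control, nearly all of it from Acta2. Acta2 alone had a mean of 4808 TPM with PDGF-DD and 6264 TPM in control. The largest log2 fold changes of these markers were -1.02 for Myh11 and -0.97 for Notch3. Of 5 cardiomyocyte markers 3 fell (Tnnt2, Myh6 and Ryr2) and none rose (sum 222.5 to 250.2 TPM with PDGF-DD, 314.7 to 334 TPM in control). Most of that sum was Tnnt2 (mean 228 TPM with PDGF-DD, 314 TPM in control). Ryr2 was at only 0.499 CPM with PDGF-DD and 0.865 CPM in control, near the threshold (edgeR adjusted p = 0.0485). Ttn and Actc1 were not called. Averaged over the 6 libraries, Tnnt2 was at 271 TPM, against 5.54 for Actc1, 1.77 for Myh6, 0.09 for Ryr2 and 0.0283 for Ttn. The calls of the cardiomyocyte list thus rest on Tnnt2 and on genes of low level. Whether cardiomyocytes were present was not tested. By calls, the lists of the remaining cell types were near the 17.4% of all tested genes, a coarse measure for 4 or 5 markers. Their median log2 fold changes were -0.11 (endothelial), -0.21 (macrophage) and -0.23 (epicardial and mesothelial), beside -0.01 for all tested genes. Their summed levels were lower in every PDGF-DD library than in any control library. Of 5 endothelial markers 1 fell (106 to 113 TPM with PDGF-DD, 114 to 129.6 TPM in control), of 5 macrophage markers 1 fell (308 to 325 TPM with PDGF-DD, 352 to 376 TPM in control), and of 4 epicardial and mesothelial markers 1 fell (39.6 to 44.6 TPM with PDGF-DD, 45.2 to 50.9 TPM in control). None of these markers was at 0 in all libraries. Their part in the changes of the IGF family was not tested, and in bulk samples fewer cells of a type and less RNA per cell cannot be told apart.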

How the data were processed

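Libraries were made from poly(A) RNA by random-primed reverse transcription and read on DNA nanoball arrays, per the labels' protocols. The submitters' processing notes name RSEM 1.2.12, Bowtie2 2.2.5, HISAT2 2.0.4, DESeq2 1.4.5 and build mm9 but say nothing of their roles. For annotation, read filters and strand, the setting is not given in the sources used here. The authors deposited estimated counts per gene, not normalized, of which 31.9% to 32.7% are not whole numbers, beside FPKM values scaled by the authors to library depth and TPM values that the authors scaled to an equal total per library, per the file headers.

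Estimated counts were rounded, filtered with filterByExpr (13270 genes) and scaled with TMM factors (0.995 to 1.01). Groups, taken from the sample titles, were compared with the two-sided quasi-likelihood test of edgeR 4.0.16 (robust) in R 4.3.3, with Benjamini-Hochberg adjustment over all tested genes and calls at 0.05. The SE is the log2 fold change divided by the square root of F. TPM served only for levels and shares. The method was tested on simulated data. Alternatives used DESeq2 1.42.0, limma 3.58.1, other scalings, no filter, a replicate block and each library left out. Intervals cover the spread between libraries, counting error included. Counting error alone gave an SE of 0.09 on the log2 scale for Igfbp6 (158 to 214 counts per library) and 0.06 for Igf2, and between 0.01 and 0.05 for the other members.

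Members and lists were chosen with earlier results of these data known. Named were all members and, from each list, the most abundant tested gene and the 3 called genes of smallest p; any other gene is marked in the text as picked with its value known, is a marker, or makes up a small count. For the patterns most like a member, 1 gene is not reported here. Sequences are from RefSeq tables of build GRCm38.p6, in which all 10 members had an entry.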

Additional observations from a re-analysis of the deposited data

How the results depend on the processing

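Igfbp3, Igfbp5, Igfbp4, Igfbp2, Igf1r and Igf2r kept their direction and their call under all 16 alternatives. Of the other members, Igfbp7 was not called in limma on log2(TPM + 1) (-0.13) or log2(TPM + 0.1) (-0.13), nor with a replicate block (-0.12), and ranged from -0.14 to -0.084 when single libraries were left out. Igfbp6 was called lower in limma on log2(TPM + 1) (-0.22) and log2(TPM + 0.1) (-0.24), and ranged from -0.30 to -0.13 without single libraries. Igf1 ranged from 0.060 to 0.14. Igf2 changed sign with upper-quartile factors (-0.0028) and ranged from -0.10 to 0.15 without single libraries. The members called higher numbered 1, or 2 without PDGF-DD replicate 2. The causes were not tested.

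In the signalling list 3 genes rose and 7 fell in DESeq2, 2 rose in each TPM fit and 3 with a replicate block; without single libraries 3 to 5 rose and 7 to 13 fell. In the imprinted and IGF2BP list 3 rose with upper-quartile factors, 1 in DESeq2, 1 in each TPM fit, 2 with a replicate block, and 2 to 4 without single libraries. In the protease list 1 rose on log2(TPM + 0.1). In the mannose 6-phosphate list 1 rose with library totals alone and with no low-count filter, and 0 to 1 without single libraries; 2 fell with upper-quartile factors and with no low-count filter, 0 in DESeq2, both TPM fits and the replicate block, and 0 to 2 without single libraries. The replicate numbers share no stated culture or animal, and deviations of same-numbered libraries correlated at -0.07, -0.09 and -0.03, so they were not treated as pairs; with the replicate block 2269 genes rose and 2076 fell, against 2535 and 2310 without it.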
